A study of Mus musculus with 9 samples.

Results

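The transcripts of 9 genes that encode enzymes of NADPH supply were followed in neonatal rat ventricular cardiomyocytes (NRVMs) overexpressing LacZ, Nrf1 or Nrf2. The genes, *Pgls*, *Pgd*, *Rpia*, *Tkt*, *Taldo1*, *Me1*, *Idh1*, *Idh2* and *Nadk*, were taken by symbol from the tables that compare these groups, in which 15088 genes had reads that could be assigned to single libraries. All 9 were among the 11318 genes with a mean normalised count of at least 10, the floor for testing. NRVMs are cultured heart muscle cells of newborn rats, here Sprague Dawley rats 1 or 2 days old. After 48 h in culture they were infected with adenovirus at a multiplicity of infection of 50, and RNA was collected 48 h later. The virus carried LacZ, a bacterial enzyme that served as the control, or the transcription factor Nrf1 or Nrf2, with 3 libraries in each of the 3 groups.

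According to the study's methods, the inserted coding regions of Nrf1 and Nrf2 were those of mouse, they were driven by a cytomegalovirus promoter, and the vector of all groups also encoded a red fluorescent protein. Such a promoter is not restricted to cardiomyocytes, so every infected cell of the culture could express the insert, and the levels are those of forced expression. The organism label of the samples reads mouse, whereas their cell type and strain labels name rat cells. The labels do not say that the libraries of a group came from separate cell isolations, and p-values then measure only the spread between these samples, which may be technical.

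The authors deposited the mean normalised count of each group, that is, reads divided by a library's size factor and averaged. Since each group stands in a pair of tables with different size factors, the whole read count of each gene in each library was recovered from these means. The libraries of a group are called a, b and c by falling depth, because the recovered counts do not carry the replicate numbers of the labels. The LacZ libraries held 9205817, 8098215 and 7759856 reads, the Nrf1 libraries 10162466, 9914175 and 8440144, and the Nrf2 libraries 11741607, 11148221 and 10008535. Nrf2 libraries were thus the deepest group on average, and counts were divided by size factors before any comparison.

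The introduced factors were checked first. *Nfe2l2*, which encodes Nrf2, had 3473, 3399 and 3493 normalised reads in the LacZ libraries, 2815, 2893 and 2869 in the Nrf1 libraries, and 78771, 77442 and 67554 in the Nrf2 libraries. The Nrf2 libraries were 21.6-fold above LacZ, as their label says. These gene counts do not separate reads of the mouse transgene from those of the cells' own rat gene. The transcript of the introduced Nrf1 was not analysed here. Of 12 cardiomyocyte markers, 11 were analysed and all 11 were above the floor for testing, with *Actc1*, cardiac actin, the most abundant.

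NADPH is the electron donor for the reduction of glutathione and thioredoxin, for detoxifying reductases and for the synthesis of lipids. The oxidative branch of the pentose phosphate pathway makes NADPH from glucose 6-phosphate, its non-oxidative branch returns pentose phosphates to glycolysis, and malic enzyme and the NADP-dependent isocitrate dehydrogenases are further sources. Nrf1 and Nrf2 are related transcription factors of the cap'n'collar family that bind antioxidant response elements, and several of these enzymes are known targets of Nrf2 in other cells.

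A gene was called higher or lower when the ratio of the authors' group means passed 1.5-fold and the adjusted p of limma, a linear model fitted over all genes tested, was under 0.05. In Nrf1 samples compared to LacZ samples, 4 of the 9 genes were called higher, *Pgd*, *Taldo1*, *Me1* and *Idh1*, beside 11.4% of all genes tested. None of the 9 was called lower by limma, beside 16.6% of all genes, and 1 gene was lower at an unadjusted p under 0.05. In Nrf2 samples compared to LacZ samples, 5 of the 9 genes were called higher, the same 4 and *Tkt*, beside 8.72% of all genes. Here 0 genes were called lower by limma, beside 9.19% of all genes, and 0 were lower at an unadjusted p under 0.05. Nrf2 samples were also set against Nrf1 samples, and the same 5 genes were called higher with Nrf2, beside 10.7% of all genes. In that comparison 0 genes were called lower by limma, beside 4.45% of all genes, and 1 gene was lower at an unadjusted p under 0.05. Here and in the lists below, each gene counted at an unadjusted p beside a count of 0 also had an adjusted p under 0.05 and was not called because it fell short of 1.5-fold.

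By adjusted p alone, whatever the fold, 7 of the 9 genes differed between Nrf1 and LacZ, beside 68.1% of all genes, 6 between Nrf2 and LacZ, beside 56.1%, and 8 between Nrf2 and Nrf1, beside 55.0%. Most genes in these libraries thus differed by this rule, and the fold is needed to set genes apart. Overlap between libraries is described below for single genes, and the share of all genes without overlap is not given here.

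The median log2 ratio of the 9 genes was 0.33 with Nrf1 over LacZ and 0.96 with Nrf2 over LacZ, and 0.73 for Nrf2 over Nrf1. Over all genes tested the medians were 0.0056, -0.0016 and -0.0075. The same LacZ libraries serve the comparison with Nrf1 and that with Nrf2, so these are set side by side and not counted as separate evidence. Together the 9 genes took 0.160% ± 0.0045 (SD, n = 3) of the reads in LacZ libraries, 0.221% ± 0.00075 in Nrf1 libraries and 0.344% ± 0.0076 in Nrf2 libraries. The share of reads spent on these transcripts therefore rose from LacZ to Nrf1 to Nrf2, with no overlap between the groups.

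**Figure D1:**
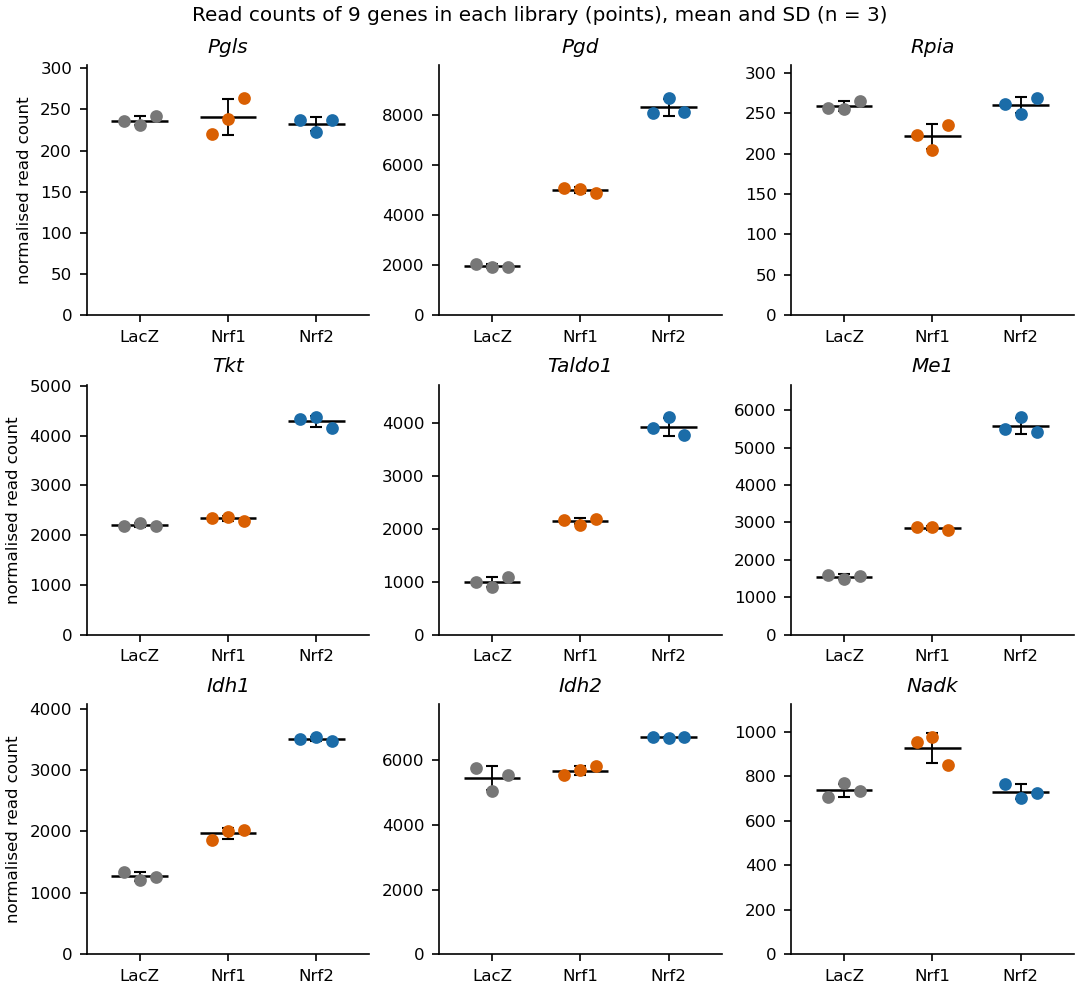
Normalised read counts (vertical axis, from 0) of the 9 genes in each LacZ, Nrf1 and Nrf2 library, with 1 point per library, a line at the mean and a bar for the SD (n = 3). *Pgd*, *Taldo1*, *Me1* and *Idh1* form 3 separate levels, and *Nadk* is high in Nrf1 libraries. *Tkt* is high in Nrf2 libraries, and its Nrf1 libraries lie just above its LacZ libraries without overlap.

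In the oxidative branch, *Pgls* encodes 6-phosphogluconolactonase, which opens the lactone made by the first dehydrogenase, and *Pgd* encodes 6-phosphogluconate dehydrogenase, which makes NADPH and ribulose 5-phosphate. *Pgd* had 2055, 1939 and 1920 normalised reads in the LacZ libraries, 5076, 5021 and 4854 in the Nrf1 libraries, and 8074, 8665 and 8120 in the Nrf2 libraries. No library of one group reached the range of another, and the order was LacZ, Nrf1, Nrf2. In the authors' table for Nrf1 and LacZ the group means of *Pgd* were 4687 and 1856, a log2 ratio of 1.34 (limma SE 0.036, adjusted p = 7.97e-16). With Nrf2 over LacZ the means were 8339 and 1982, a log2 ratio of 2.07 (adjusted p = 2.93e-18 by limma). Nrf2 samples were also above Nrf1 samples, with a log2 ratio of 0.73 (adjusted p = 1.06e-11 by limma). *Pgd* had the highest ratio to LacZ of the 9 genes with either factor.

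*Pgls* stood apart from *Pgd*. Its normalised reads were 236, 231 and 242 in the LacZ libraries, 221, 239 and 264 in the Nrf1 libraries, and 238, 223 and 238 in the Nrf2 libraries. The ranges of all groups overlapped. Over LacZ, *Pgls* had a log2 ratio of 0.03 in Nrf1 samples (adjusted p = 0.794 by limma) and -0.02 in Nrf2 samples (adjusted p = 0.828), and the 95% intervals of the fold over LacZ ran from 0.906 to 1.14 and from 0.877 to 1.11. A change of 1.5-fold thus lay outside both intervals, although the direction of these small ratios turned under some alternatives.

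In the non-oxidative branch, *Rpia* encodes ribose 5-phosphate isomerase, which forms the sugar used for nucleotides, and *Tkt* and *Taldo1* encode transketolase and transaldolase, which pass carbon units between sugar phosphates. *Taldo1* had 1002, 909 and 1083 normalised reads in the LacZ libraries, 2170, 2079 and 2188 in the Nrf1 libraries, and 3913, 4112 and 3772 in the Nrf2 libraries. These 3 groups did not overlap. Nrf1 samples were above LacZ samples by a log2 ratio of 1.10 (limma SE 0.051, adjusted p = 1.49e-12), and Nrf2 samples by 1.98 (adjusted p = 8.24e-16). Nrf2 samples in turn were 1.83-fold above Nrf1 samples, a log2 ratio of 0.87 (adjusted p = 1.17e-10 by limma).

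*Tkt* responded differently from *Taldo1*. It had 2185, 2251 and 2186 normalised reads in the LacZ libraries, 2355, 2372 and 2281 in the Nrf1 libraries, and 4332, 4368 and 4159 in the Nrf2 libraries. Nrf2 libraries stood clear of the others, while Nrf1 libraries lay just above LacZ libraries. With Nrf2 the log2 ratio of *Tkt* over LacZ was 0.96 (limma SE 0.034, adjusted p = 5.25e-14), and over Nrf1 it was 0.87 (adjusted p = 3.56e-13). With Nrf1 it was 0.08 (adjusted p = 0.039 by limma), a difference of 1.06-fold. This p was lost, at a like ratio of 0.0793, when the pair's 6 libraries were fitted on their own (adjusted p = 0.069 by limma). It was also lost without LacZ library a or c or Nrf1 library a or b, at ratios of 0.0678 to 0.073 (adjusted p from 0.0793 to 0.126). The ratio itself fell to 0.0157 when re-centred on the median gene (adjusted p = 0.685) and to 0.0203 when libraries were scaled by totals (adjusted p = 0.803).

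*Rpia* had 256, 255 and 266 normalised reads in the LacZ libraries, 223, 205 and 236 in the Nrf1 libraries, and 262, 249 and 269 in the Nrf2 libraries. Nrf1 libraries were the lowest group, and LacZ and Nrf2 libraries overlapped. Compared to LacZ, *Rpia* had a log2 ratio of -0.23 with Nrf1 (limma SE 0.075, adjusted p = 0.0124), short of 1.5-fold, and without Nrf1 library b the adjusted p was 0.0716. With Nrf2 over LacZ the log2 ratio was 0.01 (adjusted p = 0.952 by limma).

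**Figure D2:**
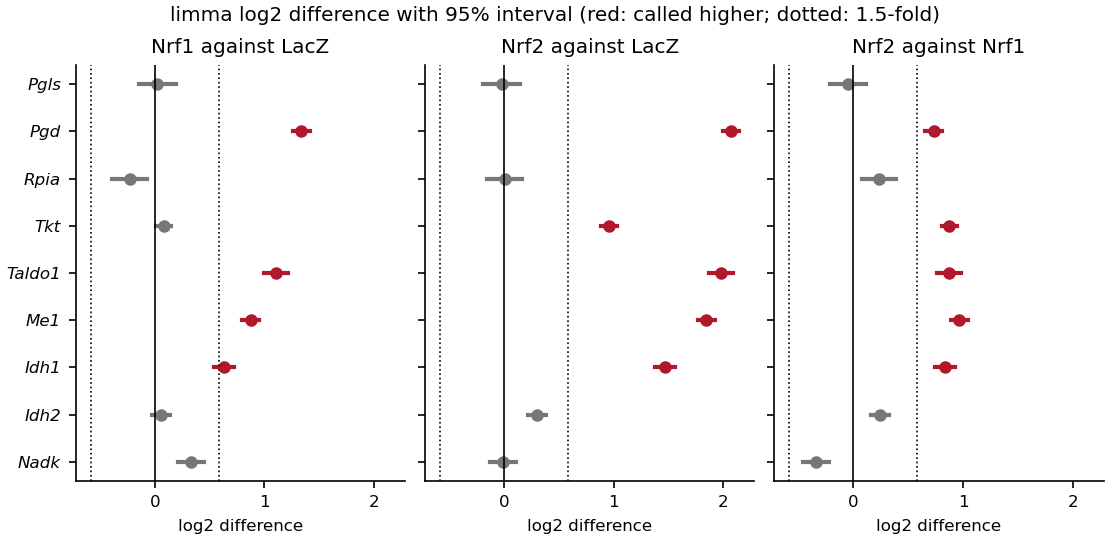
Log2 differences between groups (horizontal axis) fitted by limma for the 9 genes, with 1 panel per comparison, points at the estimate, bars for the 95% interval and dotted lines at 1.5-fold. Red marks the genes called higher, which are 4 with Nrf1 over LacZ, 5 with Nrf2 over LacZ and 5 with Nrf2 over Nrf1.

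Among the sources outside the pathway, *Me1* encodes the cytosolic malic enzyme, which makes NADPH as it turns malate into pyruvate. It had 1597, 1483 and 1578 normalised reads in the LacZ libraries, 2872, 2882 and 2798 in the Nrf1 libraries, and 5495, 5811 and 5429 in the Nrf2 libraries. The groups did not overlap, in the order LacZ, Nrf1, Nrf2. Over LacZ, Nrf1 samples had a log2 ratio of 0.87 (limma SE 0.037, adjusted p = 4.03e-13) and Nrf2 samples one of 1.85 (adjusted p = 2.13e-17). Between the factors it was 0.96 (adjusted p = 3.72e-13 by limma), the largest such ratio among the 9 genes.

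*Idh1* and *Idh2* encode the NADP-dependent isocitrate dehydrogenases of the cytosol and of mitochondria. *Idh1* had 1346, 1205 and 1254 normalised reads in the LacZ libraries, 1861, 2011 and 2029 in the Nrf1 libraries, and 3499, 3542 and 3473 in the Nrf2 libraries. Again the groups did not overlap. The log2 ratio of *Idh1* was 0.63 with Nrf1 (limma SE 0.043, adjusted p = 3.87e-10), or 1.55-fold, and this call ended when ratios were re-centred on the median gene (0.57) or scaled by totals (0.57). With Nrf2 it was 1.47 (adjusted p = 4.53e-15 by limma), and Nrf2 samples were above Nrf1 samples by 0.83 (adjusted p = 2.10e-11 by limma).

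*Idh2* had 5777, 5049 and 5562 normalised reads in the LacZ libraries, 5539, 5704 and 5813 in the Nrf1 libraries, and 6728, 6702 and 6728 in the Nrf2 libraries. LacZ and Nrf1 libraries overlapped, and all Nrf2 libraries lay above them. For *Idh2* the log2 ratio was 0.06 with Nrf1 (adjusted p = 0.191 by limma), and it was 0.10 without LacZ library a (adjusted p = 0.0229) and 0.0016 without LacZ library b (adjusted p = 0.906). With Nrf2 it was 0.30 (limma SE 0.040, adjusted p = 3.75e-06), with a 95% interval of the fold from 1.16 to 1.31 that stayed under 1.5-fold. The mitochondrial enzyme thus differed less from LacZ than its cytosolic relative with Nrf2, a contrast between the genes that was not tested. The NAD-linked mitochondrial enzyme was followed by *Idh3a* and *Idh3g*, the genes analysed of 3 subunit genes, with log2 ratios of 0.39 and 0.04 with Nrf2 and 0.07 and -0.28 with Nrf1, and neither was called in any comparison.

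*Nadk* encodes the cytosolic NAD kinase, which makes NADP, the form that the NADPH-producing enzymes reduce. It had 707, 768 and 733 normalised reads in the LacZ libraries, 951, 976 and 852 in the Nrf1 libraries, and 766, 702 and 722 in the Nrf2 libraries. All Nrf1 libraries lay above those of the other groups, which overlapped each other. The log2 ratio of *Nadk* was 0.33 with Nrf1 over LacZ (limma SE 0.056, adjusted p = 4.39e-05). Nrf2 samples lay below Nrf1 samples, at -0.35 (adjusted p = 4.89e-05 by limma), and both differences fell short of 1.5-fold. With Nrf2 over LacZ it was -0.01 (adjusted p = 0.872 by limma). *Nadk* was thus the gene among the 9 whose mean was highest in Nrf1 samples beyond the spread between libraries. *Nadk2*, which encodes the mitochondrial NAD kinase, had the other order. Its log2 ratio over LacZ was -0.41 in Nrf1 samples (adjusted p = 9.22e-06 by limma) and 0.87 in Nrf2 samples (adjusted p = 9.60e-10), and Nrf2 samples exceeded Nrf1 samples by 1.27 (adjusted p = 5.96e-12).

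**Figure D3:**
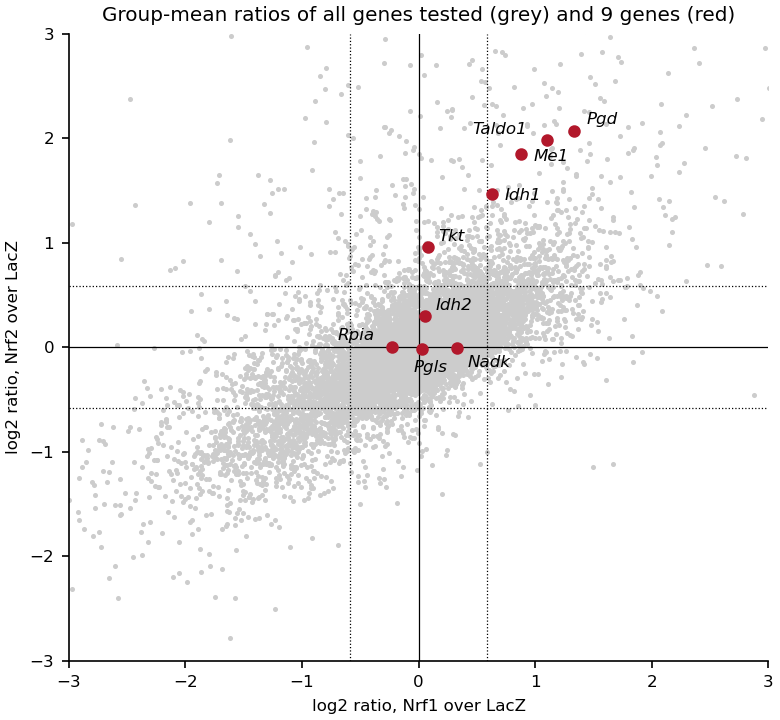
Log2 ratio to LacZ with Nrf1 (horizontal axis) and with Nrf2 (vertical axis) from the authors' group means, with the 9 genes in red, the other genes tested in grey and dotted lines at 1.5-fold. The axes end at 3, and 101 of 11318 genes lie outside them. *Pgd*, *Taldo1*, *Me1* and *Idh1* lie past 1.5-fold on both axes and *Tkt* on the vertical axis, and the same LacZ libraries enter both axes.

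The genes with the pair of log2 ratios to LacZ closest to that of a called gene were sought among 7890 genes whose mean reached 100 in all groups. For *Taldo1* the closest was *Cat*, the catalase gene, at a distance of 0.029, with log2 ratios of 1.11 with Nrf1 and 2.01 with Nrf2, followed by *Trim54* and *Nabp1*. For *Pgd* they were *Rpl32*, *Agpat9* and *Pir*, at distances of 0.168 to 0.192, and *Rpl32* is a ribosomal protein gene with processed copies whose reads could be shared. For *Me1* they were *Nabp1*, *Taldo1* and *Trim54*, at 0.262 to 0.276, so that *Me1* had no neighbour as close as that of *Taldo1*. For *Idh1* they were *Pc*, the pyruvate carboxylase gene, *Abcc4* and *Ik*, at 0.112 to 0.119. For *Tkt* they were *Haus8*, *Plb1* and *Gga2*, at 0.026 to 0.044.

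Because several of the genes moved together, their promoters were searched for the core of the antioxidant response element, TGACNNNGC on either strand. No rat sequence was used here, and the windows are those of mouse, from RefSeq on GRCm38.p6, each from 250 bases before to 50 bases after a gene's start. All 9 genes were matched by symbol to 13 windows, of which 2 held the core, beside 4071 of 32851 windows of all genes, or 12.4%. These matches are shown with the core in capitals, that of *Me1* at chr9:86695902-86695930 and that of *Pgd* at chr4:149166061-149166089, both on the minus strand.
*Me1*: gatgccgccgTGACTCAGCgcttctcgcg
*Pgd*: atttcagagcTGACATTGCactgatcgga
The core began 6 bases before the start in *Me1* and 3 bases after it in *Pgd*. A match is a description of letters in mouse sequence, and a window without one says nothing of sites elsewhere.

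The other genes of the pathway were taken from a list of 25 further NADPH-producing and pentose phosphate genes, of which 21 were tested. With Nrf1, 3 were called higher and 4 lower, near the shares of 11.4% and 16.6% over all genes, and the median log2 ratio was -0.16. With Nrf2, 4 were called higher and 1 lower, beside 8.72% and 9.19% of all genes, with a median of 0.03, where scaling by totals gave 2 lower and a median of -0.04. Between the factors, 7 were higher and 1 was lower with Nrf2 than with Nrf1, beside 10.7% and 4.45% of all genes, and re-centring on the median gene left 0 lower. *Shpk*, which encodes sedoheptulokinase, a kinase of a sugar of the non-oxidative branch, rose from 25.2 ± 8.30 normalised reads (SD, n = 3) in LacZ samples to 40.9 ± 7.02 with Nrf1 and 96.2 ± 9.05 with Nrf2, a log2 ratio of 1.93 with Nrf2 (adjusted p = 4.36e-07 by limma). *Pgm1*, which encodes phosphoglucomutase, rose with Nrf2, by a log2 ratio of 1.04 (adjusted p = 1.86e-13 by limma), and had a ratio of 0.27 with Nrf1.

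Among the 4 genes called lower with Nrf1 were *Aldh1l2*, *Mthfd1l* and *Mthfd2*, which encode mitochondrial folate enzymes, with log2 ratios of -1.89 (adjusted p = 7.13e-12 by limma), -1.26 (adjusted p = 2.86e-11) and -1.23 (adjusted p = 7.24e-13). The remaining gene called lower was *Prps2*, at -0.80 (adjusted p = 5.98e-09 by limma). *Mthfd2l*, which encodes a further mitochondrial folate enzyme, had a log2 ratio of -0.26 with Nrf1 and was not called (adjusted p = 0.201 by limma). The other folate genes of the list, *Mthfd1* and *Aldh1l1*, had log2 ratios of 0.23 and -0.40 with Nrf1 and were not called. Folate genes were not tested as a group. With Nrf2, *Aldh1l2* was called lower as well, with means of 299.7 normalised reads in LacZ and 149.8 in Nrf2 samples, while *Mthfd1l* and *Mthfd2* had log2 ratios of -0.48 and -0.38, and these 3 genes were called higher with Nrf2 than with Nrf1. *Nnt*, the mitochondrial transhydrogenase gene and the most abundant of the list, had log2 ratios of -0.32 and 0.02 with Nrf1 and Nrf2, neither of them past 1.5-fold.

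Of 14 genes that make or use hexose phosphates beside the pathway, 12 were tested. With Nrf1, 4 were called higher and 1 lower (median log2 ratio 0.44), beside 11.4% and 16.6% of all genes. With Nrf2, 7 were called higher and 1 lower (median 0.60), beside 8.72% and 9.19% of all genes, where re-centring on the median gene left 5 and scaling by totals 4 called higher. Between the factors 0 passed both 1.5-fold and limma in either direction, beside 10.7% and 4.45% of all genes, while 5 were higher and 1 was lower with Nrf2 at an unadjusted p under 0.05, and these also had an adjusted p under 0.05. *Tigar*, which encodes a phosphatase that lowers fructose 2,6-bisphosphate, had 213, 220 and 258 normalised reads in LacZ libraries, 377, 420 and 426 with Nrf1, and 487, 494 and 522 with Nrf2, with no overlap. Both differences from LacZ were called, with a log2 ratio of 0.82 in Nrf1 samples (adjusted p = 2.50e-08 by limma) and of 1.12 in Nrf2 samples (adjusted p = 6.82e-10). *Gpi*, the glucose 6-phosphate isomerase gene, had a log2 ratio of 0.47 with Nrf1 and was called with Nrf2, at 0.92 (adjusted p = 1.67e-14 by limma). *Pfkp*, a phosphofructokinase gene, rose by like amounts with both, at 0.78 and 0.78, and differed by -0.01 between them (adjusted p = 0.961 by limma).

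Of 25 genes for NADPH-using enzymes, 23 were tested, and 3 were called higher and 3 lower with Nrf1, near the shares over all genes, with a median log2 ratio of 0.03 that was -0.03 under either other scaling. With Nrf2, 10 were called higher (8 when scaled by totals) and 2 lower, beside 8.72% and 9.19% of all genes, with a median of 0.45. Set against Nrf1, 6 were higher and 0 lower with Nrf2, beside 10.7% and 4.45% of all genes, and 2 were lower at an unadjusted p under 0.05 by limma. *Nqo1*, the NADPH quinone reductase gene, had 823 ± 102 normalised reads (SD, n = 3) in LacZ samples, 1131 ± 20.5 with Nrf1 and 5541 ± 199 with Nrf2, with log2 ratios of 0.46 and 2.75. *Txnrd1*, the cytosolic thioredoxin reductase gene, had a log2 ratio of 0.35 in Nrf1 samples and was called higher in Nrf2 samples, at 1.80 (adjusted p = 3.67e-17 by limma). *Akr1b8*, an aldo-keto reductase gene with close relatives, was called lower with Nrf1, at -0.80 (adjusted p = 6.04e-11 by limma), and higher with Nrf2, at 2.47 (adjusted p = 1.36e-17). *Blvrb*, a biliverdin reductase gene, was called higher with both, at 2.46 with Nrf1 (adjusted p = 4.12e-17 by limma) and 1.91 with Nrf2 (adjusted p = 2.00e-15). Nrf2 samples lay below Nrf1 samples in *Blvrb* by a log2 ratio of -0.56 (adjusted p = 8.43e-08 by limma), short of 1.5-fold and not called.

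Markers of other cells in the culture moved with the groups. In bulk samples, fewer cells of a type and less RNA per cell cannot be told apart. All 10 fibroblast markers were called lower with Nrf1 and 8 of 10 with Nrf2, with median log2 ratios of -1.82 and -0.97. Over all genes tested, to be set beside the counts of each marker list, 11.4% were called higher and 16.6% lower with Nrf1, 8.72% and 9.19% with Nrf2, and 10.7% and 4.45% with Nrf2 over Nrf1. In Nrf2 samples compared to Nrf1 samples, 7 fibroblast markers were called higher and 1 lower, with a median log2 ratio of 0.91. Their summed normalised reads were 123635, 129734 and 124801 in LacZ libraries, 32676, 34103 and 31616 in Nrf1 libraries, and 69644, 64437 and 67105 in Nrf2 libraries, most of them from *Col1a1*, a collagen gene.

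Leukocyte markers were called lower for 9 of 10 genes with Nrf1 and 8 of 10 with Nrf2. The marker not called with Nrf1, *Csf1r*, lay above LacZ by a log2 ratio of 0.43 (adjusted p = 0.00312 by limma), short of 1.5-fold. Their sums were 1892, 2754 and 1968 in LacZ libraries, 1099, 1133 and 1110 with Nrf1, and 1024, 1137 and 1132 with Nrf2. By group mean *Lyz2* was the most abundant in LacZ samples, and *Csf1r* was above it in Nrf1 samples (380 and 317) and in Nrf2 samples (298 and 257). LacZ library b stood above the other LacZ libraries in the leukocyte sum, and without it the same 4 and 5 of the 9 genes were called higher with Nrf1 and with Nrf2 over LacZ. With Nrf2 over Nrf1, 2 leukocyte markers were called higher and 0 lower by limma, where 2 were lower at an unadjusted p under 0.05. Of 8 endothelial markers, 5 were called lower with Nrf1, and 4 lower and 1 higher with Nrf2, with sums of 1435, 1476 and 1473 in LacZ libraries, 1139, 1039 and 1147 with Nrf1, and 1157, 1011 and 1248 with Nrf2. By group mean *Kdr* was the most abundant in LacZ and Nrf1 samples, and *Tek* was above it in Nrf2 samples (313 and 285). Nrf2 samples set against Nrf1 samples had 1 endothelial marker called higher and 0 lower by limma, where 1 was lower at an unadjusted p under 0.05.

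Of 5 smooth muscle markers, 2 were called higher and 1 lower with Nrf1, and 1 was called higher with Nrf2, while 2 were called higher and 0 lower by limma with Nrf2 over Nrf1, where 3 were lower at an unadjusted p under 0.05. Their sums were 39709, 32920 and 36576 in LacZ libraries, 60760, 60403 and 59970 with Nrf1, and 47612, 48584 and 50920 with Nrf2, and *Acta2*, which immature cardiomyocytes also express, was the most abundant. Of 11 cardiomyocyte markers, 2 were called higher (1 under either other scaling) and 4 lower with Nrf1 and 0 with Nrf2, where 6 were higher and 2 lower at an unadjusted p under 0.05 by limma. Compared to Nrf1, 5 cardiomyocyte markers were called higher with Nrf2 (4 when scaled by totals) and 0 lower by limma, with a median log2 ratio of 0.42, and 2 were lower at an unadjusted p under 0.05. Their sums were 157003, 136692 and 146928 in LacZ libraries, 147233, 147707 and 149007 with Nrf1, and 164044, 166060 and 162462 with Nrf2. The 5 adipocyte markers were read because adipocytes are rich in malic enzyme, and they summed to 41.2, 41.5 and 43.9 in LacZ libraries, 31.2, 32.2 and 28.6 with Nrf1, and 31.5, 42.0 and 26.3 with Nrf2. Most of these reads came from *Fabp4* (mean 35.8 in LacZ samples), and the other 4 markers were below the floor for testing. The part of the other cell types in the ratios of the 9 genes was not tested.

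**Figure D4:**
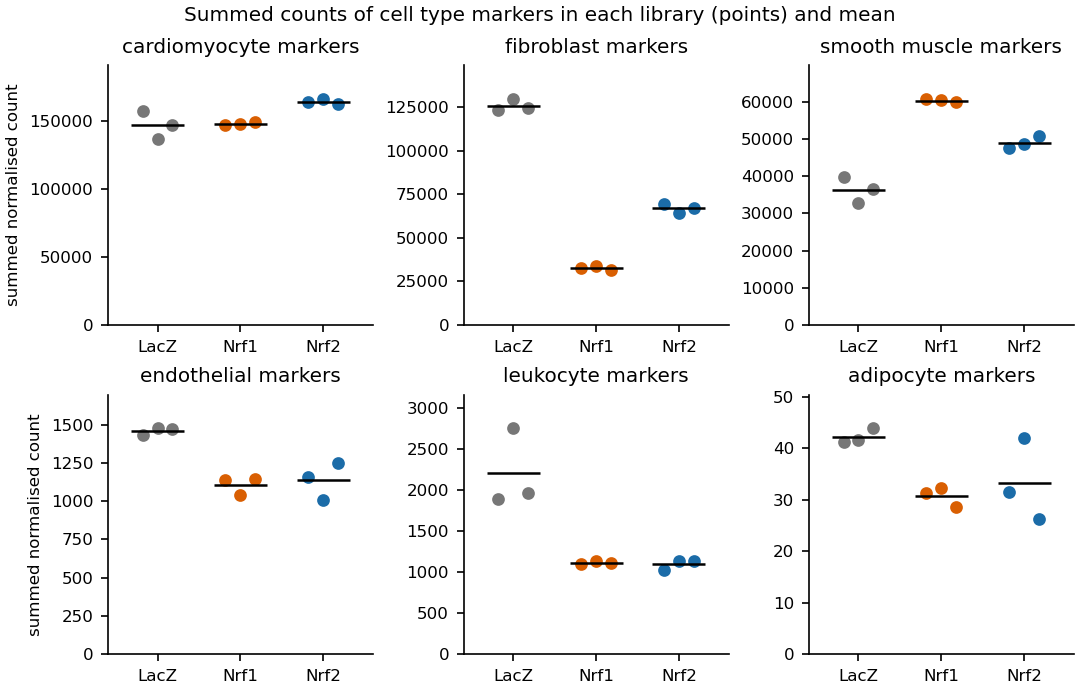
Summed normalised read counts (vertical axis, from 0) of the markers of 6 cell types in each LacZ, Nrf1 and Nrf2 library, with 1 point per library and a line at the mean (n = 3). The fibroblast sum, most of it *Col1a1*, is highest in LacZ and lowest in Nrf1 libraries. The smooth muscle sum, most of it *Acta2* and *Tagln*, does not show the order of each smooth muscle marker. The cardiomyocyte and fibroblast sums likewise do not show the order of each of their markers.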

How the data were processed

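Messenger RNA of the LacZ, Nrf1 and Nrf2 groups was sequenced as 9 stranded libraries with 75-bp reads from one end. The study's methods and the submitters' processing notes name FastQC 0.11.4 for quality, HISAT2 2.0.4 for alignment to the rat genome Rnor 6.0, SAMtools 0.1.18 for removal of duplicates, which can lower the counts of very abundant transcripts, and featureCounts 1.6.0 for counting. The strand setting of the counting is not given in the sources used here. The signal in the deposited tables is the mean over a group's libraries of read counts that the authors divided by size factors set for each pair of groups. The tables hold 0 columns of single samples. Their other columns hold the authors' own comparison (fold change, its log2, p-value, adjusted p-value), for which the methods name edgeR 3.20.5, and were not used.

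Each group stands in 2 of the 3 tables, so 2 equations in 3 whole numbers gave each library's reads, with a largest relative difference of 1.45e-09 from the deposited means. A unique solution was found for 99.9% of 14657 genes in LacZ and 100% of 14579 and 14746 genes in Nrf1 and Nrf2, and 8 genes with several solutions were left out. In each table with LacZ, 26 symbols written as dates were left out. Replicate libraries differed beyond counting noise in every pair (chi-square per degree of freedom 1.50 to 5.25). Reads were divided by median-of-ratios size factors over 9 libraries, and log2(value + 1) was fitted with limma 3.58.1 (trend) in R 4.3.3, with Benjamini-Hochberg adjustment over 11318 genes with a mean of at least 10. Differences are log2 ratios of the authors' group means, standard errors and intervals come from limma, and the pseudocount slightly understates changes of low genes. The recovery of reads and the fit were tested on simulated data. Tables and plots were made with Python 3.11.15.

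The 9 genes and all lists were chosen with earlier results of these data known. Of each list, at most 6 genes past 1.5-fold, by the largest log2 ratio to LacZ, could be named, and for each called gene the 3 nearest by Euclidean distance. *Nfe2l2*, *Nnt*, *Mthfd2l*, *Mthfd1*, *Aldh1l1*, *Prps2*, *Idh3a*, *Idh3g* and the most abundant markers were named outside that rule, after their values were seen. 1 gene of the lists is not reported here. Alternatives were other folds and p thresholds, filters, scalings and pseudocounts, the pair's 6 libraries, precision weights, removal of each library and, added after the data were seen, the limma coefficient as the fold.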

Additional observations from a re-analysis of the deposited data

How the results depend on the processing

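The number of the 9 genes called depended mainly on the fold required. With Nrf1 over LacZ it was 4, or 2 at a fold of 2 and 7 with no fold. With Nrf2 over Nrf1 it was 5, or 0 at a fold of 2 and 8 with no fold, by construction of these settings. With Nrf2 over LacZ it was 5 under every setting but these, which gave 4 and 6. Re-centring and scaling by totals each gave 3 genes with Nrf1, without *Idh1*. An adjusted p of 0.01, other filters and pseudocounts, precision weights, the pair's 6 libraries, the limma coefficient as the fold, which was added after the data were seen, and removal of each library gave 4, 5 and 5 genes. Without 1 library, the log2 ratio of *Idh1* with Nrf1 ran from 0.60 to 0.68.

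Ratios near 0 changed sign. Re-centring and scaling by totals each subtract the same amount from every log2 ratio of a comparison, so their turns follow from the scaling. These amounts were 0.0638 and 0.0592 with Nrf1 over LacZ, and 0.0173 and 0.0765 with Nrf2 over LacZ. With Nrf2 over Nrf1 they were -0.0393 and 0.0095, so that re-centring raised the ratios of that comparison. The cause of differences between single libraries was not tested. After re-centring and scaled by totals, *Pgls* had -0.0372 and -0.0325 with Nrf1, *Idh2* -0.0083 and -0.0037 with Nrf1, and *Rpia* -0.0099 and -0.0691 with Nrf2 over LacZ. Without 1 library, *Pgls* ran from -0.0425 (Nrf1 c left out) to 0.0865 with Nrf1 over LacZ, from -0.0364 to 0.0094 (Nrf2 b) with Nrf2 over LacZ and from -0.1149 to 0.0145 (Nrf1 c) with Nrf2 over Nrf1. With Nrf2 over LacZ, *Rpia* ran from -0.018 to 0.0369, below 0 without LacZ a, LacZ b or Nrf2 c, and *Nadk* from -0.0463 to 0.0226, above 0 without LacZ b or Nrf2 b. *Rpia* for Nrf2 over Nrf1 (adjusted p = 0.0137 by limma) had adjusted p = 0.0761 without Nrf1 b and 0.0548 without Nrf2 c.

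Scaling by totals moved the share of higher genes among all calls with Nrf2 over LacZ from 48.7% to 38.4%, and re-centring on the median gene moved it to 46.2%. With Nrf1 over LacZ this share went from 40.8% to 34.2% by totals and 33.8% after re-centring. For Nrf2 over Nrf1 it went from 70.5% to 68.8% and 76.1%. No paired analysis was possible because the recovered libraries carry no replicate numbers. With 3 libraries per group and counts of 204 to 316 reads for *Pgls* and *Rpia*, small differences of these genes are the least certain.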
